A study of Mus musculus with 6 samples.

Results

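The genes described here encode the phosphoinositide 3-kinase (PI3K), AKT and mTOR signalling pathway, measured in samples labelled as mouse satellite cells. They were chosen as a list of 37 pathway genes, and a probe was counted when its gene name was a current or older symbol of one of them, as with Frap1 for Mtor. The arrays carried 81 probes for 36 of the 37 genes, out of 41174 non-control probes, and Irs2 was not analysed here. The labels name satellite cells from skeletal muscle, the stem cells that lie beside muscle fibres, taken in proliferation from female mice. The marker genes below go against that name in the Magic-F1 samples. In the control samples they include high neutrophil signal beside the myogenic signal. Magic-F1+/+ cells, from the mice the series presents as its hypertrophy model, were set against control cells, and the series names both groups biological triplicates (n = 3 each). Magic-F1 is an artificial growth factor built from parts of hepatocyte growth factor. The sample titles carry the word Omo for the Magic-F1 group and MLC3F for the control group, and the labels do not explain either word. Age, strain, the number of mice behind a sample and the promoter of the transgene are not given in the sources used here. One single-colour Agilent array was run per sample.

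Class I PI3Ks are recruited by activated receptors and phosphorylate a membrane lipid to PIP3. PIP3 draws PDPK1 and AKT to the membrane, where AKT is activated and phosphorylates targets such as GSK3, TSC2 and FOXO factors. AKT releases the GTPase RHEB from the TSC complex, and RHEB then activates mTORC1, the kinase complex that drives protein synthesis through S6 kinases and through release of the cap-binding protein eIF4E from its binding proteins. In skeletal muscle this pathway is known as the main route from growth factors to fibre growth, and in leukocytes separate PI3K subunits serve immune receptors.

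The cell type labels were checked first against marker genes, because many PI3K genes are used mainly by leukocytes. Values below are log2 processed signals relative to the 75th percentile of the same array, so 0 marks that percentile. The 75th percentile itself was 341 to 356 intensity units on Magic-F1 arrays and 275 to 292 on control arrays, 49.2% to 52.0% of non-control spots were well above background and 0 were saturated. All 9 tested of 10 myogenic markers were lower in Magic-F1 cells, and their summed signal was 100 to 103 times the 75th percentile on Magic-F1 arrays and 1059 to 1114 times on control arrays. The satellite cell gene Pax7 was clear of background on 0 of 3 Magic-F1 arrays but on 3 of 3 control arrays. Its control mean was -3.09. Myf5 was clear of background on 0 of 6 arrays. The largest falls among these markers were those of Actc1, Ckm and Cdh15 (log2 change -6.69, -5.75 and -4.84). All 10 macrophage markers were higher, with sums of 1058 to 1099 on Magic-F1 arrays and 68.8 to 73.0 on control arrays, led by Cx3cr1, C1qc and Csf1r (log2 change 7.42, 6.86 and 6.08). All 7 tested of 8 neutrophil markers were lower, and the list summed to 0.202 to 0.222 on Magic-F1 arrays and 583 to 627 on control arrays. S100a9 and Camp were not well above background in Magic-F1 cells and were at least 18853-fold and at least 344-fold lower there, and Mpo changed by -10.24. Adipocyte markers were higher in 6 of 6, with sums of 424 to 452 on Magic-F1 arrays and 57.9 to 64.7 on control arrays. Cidec and Cfd led them (log2 change 6.21 and 5.16), and Retn, not well above background in control cells, was at least 16.0-fold higher. Of 5 tested endothelial markers 1 was higher and 4 were lower. Their sums were 0.228 to 0.255 on Magic-F1 arrays and 7.51 to 7.89 on control arrays, with log2 changes of -6.78 for Cldn5 and -5.70 for Emcn and with Pecam1 at least 5.50-fold lower, while Kdr, named after its values were seen, was higher by 0.64 (-0.03 with normexp background, which keeps an offset under every spot). Fibroblast sums were 377 to 384 on Magic-F1 arrays and 571 to 588 on control arrays, with 2 markers higher and 3 lower, among them Dcn, Lum and Col1a1 (-1.07, 0.72 and -0.57). B cell markers summed to 0.494 to 0.545 on Magic-F1 arrays and 0.829 to 0.950 on control arrays, with Ms4a1 at least 5.86-fold lower and Cd79a at 0.56 without passing the test. T cell markers summed to 0.421 to 0.465 on Magic-F1 arrays and 0.774 to 0.894 on control arrays, with Cd3d at -3.63, Lck at -0.86 and Cd3e at 0.22 without passing. With normexp background the changes were smaller but in the same direction for Ckm (-4.97), Cx3cr1 (5.06), Mpo (-7.97), S100a9 (-11.5), Camp (-5.61), Cidec (5.25), Retn (1.70), Cldn5 (-3.68), Emcn (-4.25), Pecam1 (-0.97), Ms4a1 (-0.99) and Cd3d (-0.85), while Cd79a was at -0.12. The markers of the Magic-F1 samples thus go against the satellite cell label, with macrophage and adipocyte genes high and Pax7 not well above background. Their myogenic genes were lower than in control cells but not absent, with 8 of 10 well above background on all Magic-F1 arrays. The control samples carried neutrophil transcripts beside their myogenic ones. They also carried macrophage and adipocyte signal, at lower levels than the Magic-F1 samples. These marker differences run alongside every result below, and their part in those results was not tested. In bulk RNA, fewer cells of a type and less RNA per cell cannot be told apart.

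Most measured pathway genes were higher in Magic-F1 cells. Within the list, the largest differences lay at the PI3K end, in Inpp5d, Pik3ap1, Pik3r5 and Pik3cg, but not in every gene there. At the cap-binding end Eif4e and Eif4ebp1 were lower and Eif4ebp2 was higher. Of 33 genes with a tested probe, 23 were higher and 10 were lower (limma, Benjamini-Hochberg adjusted p under 0.05). With this scaling the largest rises were those of Inpp5d, Pik3ap1, Pik3r5 and Pik3cg, between log2 4.46 and 5.69, and the largest falls those of Ddit4, Eif4ebp1, Eif4e and Rps6kb2, between log2 -1.92 and -1.04. Across the arrays as a whole 89.1% of 13334 tested genes passed the same test, 40.5% higher and 48.6% lower, so that passing it does not set the pathway genes apart. The median log2 change was 0.74 over the 33 pathway genes and -0.17 over all tested genes. Changes of at least 2-fold were seen upward for 14 pathway genes (23.7% of all genes) and downward for 4 (29% of all genes). The 3 values of one group lay outside those of the other for 33 of 33, against 90.6% of all genes. Gsk3a, Mtor and Rictor had no probe well above background throughout either group and were not tested. Of the 81 probes 54 were tested, with 36 higher, 16 lower and 2 not passing (of all tested probes 87.7% passed, 41.3% higher and 46.5% lower). Genes counted here had to be well above background in at least 1 group. Of the 33 genes, 23 were higher and 6 lower under every one of 4 scalings of the arrays (40% and 35.6% of all genes).

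**Figure D1:**
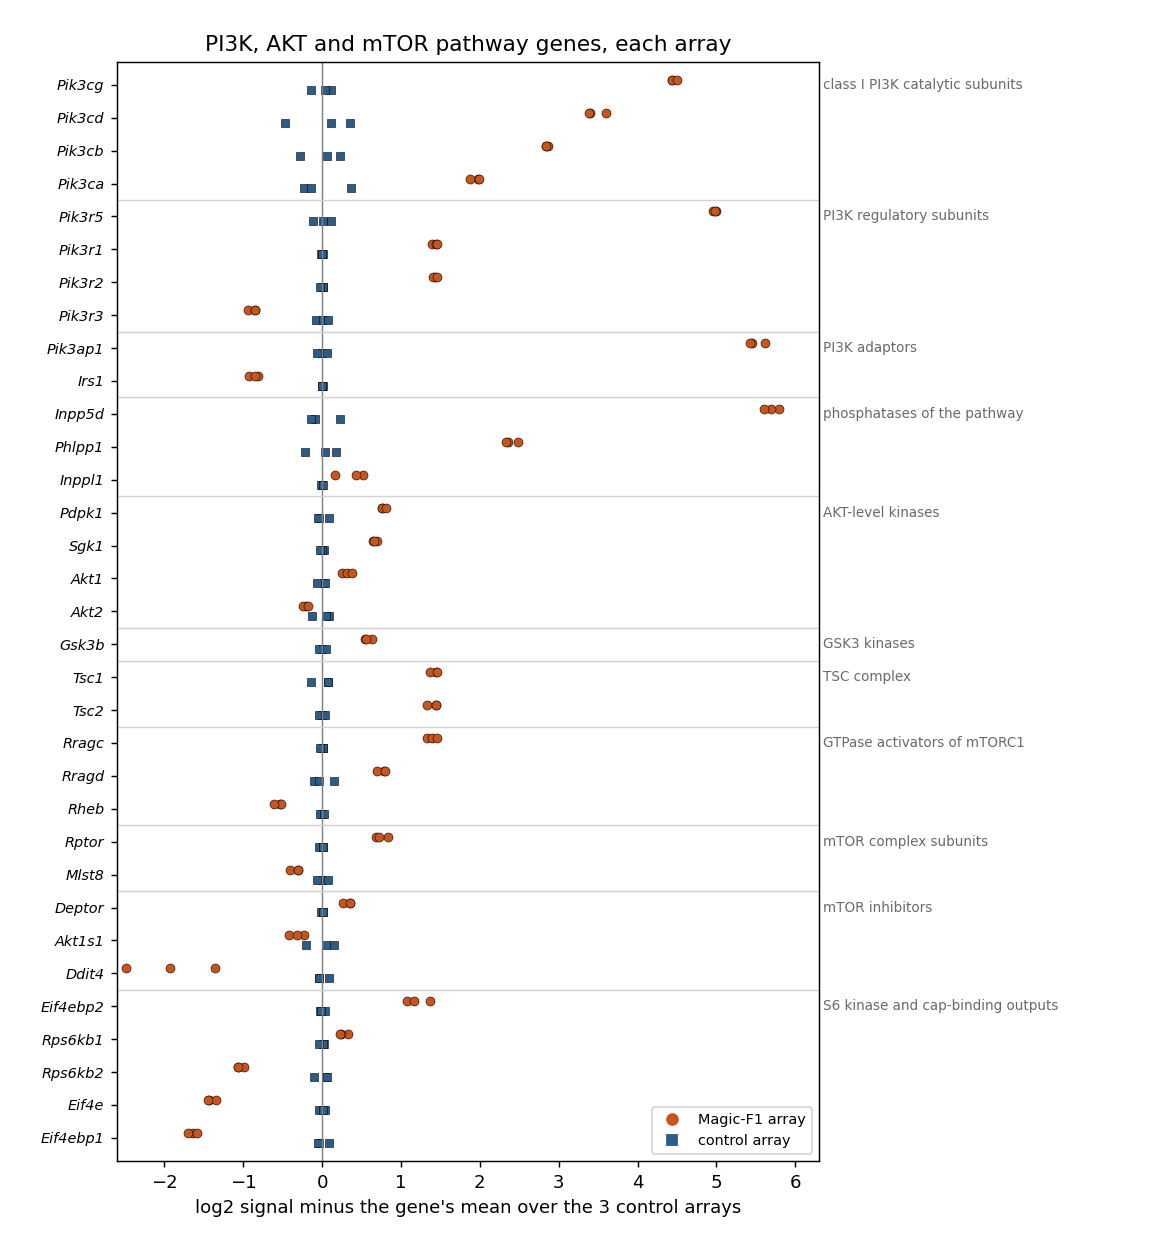
Each row is a pathway gene with a tested probe, ordered by role, and the x axis gives the log2 signal of each array minus the mean of that gene over the control arrays. Orange circles are the 3 Magic-F1 arrays and blue squares the 3 control arrays. Inpp5d reaches 5.69 on average to the right, with Pik3ap1, Pik3r5 and Pik3cg next, while Ddit4, Eif4ebp1 and Eif4e lie to the left of 0, and Ddit4 has the widest Magic-F1 spread.

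All 4 class I catalytic subunits, the enzymes that make PIP3, were higher in Magic-F1 cells. The rise was largest for Pik3cg and Pik3cd, which encode p110 gamma and p110 delta, the forms known from leukocytes, and smaller for the ubiquitous forms p110 alpha (Pik3ca) and p110 beta (Pik3cb). Pik3cg read 1.39, 1.38 and 1.46 in Magic-F1 cells, against -2.94, -3.19 and -3.01 in control cells. The Magic-F1 arrays were all far above the control arrays, with little spread in either group. Pik3cg changed by 4.46 ± 0.08 on the log2 scale (SE, n = 3 each, adjusted p = 6.28e-08), or 2.99 with normexp background. Pik3cd read -1.25, -1.45 and -1.47 in Magic-F1 cells, against -4.49, -4.74 and -5.32 in control cells, where 2 of 3 arrays were well above background. Its groups did not overlap and the control values were the more scattered, close to background. The log2 change was 3.46 ± 0.21 (adjusted p = 1.07e-05), or 1.21 with normexp background. The tested Pik3cd probe spans more than its own length on the genome, so it crosses at least 1 exon junction. It is shown because it reads spliced RNA of a leukocyte PI3K subunit, and it lies at mm9 chr4:149028671-149028928 on the minus strand, written 5′ to 3′ in the sense of the transcript:
Pik3cd probe: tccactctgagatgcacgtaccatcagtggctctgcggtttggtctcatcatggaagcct

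Pik3cb read -1.46, -1.43 and -1.45 in Magic-F1 cells, against -4.07, -4.58 and -4.24 in control cells. The Magic-F1 arrays were nearly identical and all higher. Its log2 change was 2.85 ± 0.13 (adjusted p = 2.65e-06), or 1.08 with normexp background. Pik3ca read -0.54, -0.64 and -0.52 in Magic-F1 cells, against -2.75, -2.65 and -2.15 in control cells. The groups did not overlap, and control replicate 3 was the highest of its group. The log2 change of Pik3ca was 1.95 ± 0.16 (adjusted p = 4.61e-05), or 1.17 with normexp background, and its second probe, not well above background in control cells, was at least 3.12-fold higher (adjusted p = 9.03e-05, normexp log2 change 0.20).

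Among the regulatory subunits, which link the catalytic subunits to receptors, 3 were higher and 1 was lower. Pik3r5 encodes p101, a partner of p110 gamma. It read 3.52, 3.48 and 3.50 in Magic-F1 cells, against -1.37, -1.46 and -1.60 in control cells. Both groups were tight and far apart, and the log2 change was 4.98 ± 0.07 (adjusted p = 3.48e-08), or 4.38 with normexp background. The second Pik3r5 probe stayed in the background range on the control arrays and was at least 22.8-fold higher in Magic-F1 cells (adjusted p = 2.23e-05), with a log2 change of 1.85 under normexp background. Pik3r1 and Pik3r2, which encode p85 alpha and p85 beta, each rose by 1.43 ± 0.04 (adjusted p = 4.45e-07 and 4.28e-07). The other tested Pik3r1 probes changed by 1.98 and by 1.92, or by 1.35 and 0.37 with normexp background, and only 1 control array was clear of background at the dimmer of them. Pik3r3, which encodes the p55 gamma subunit, read 0.65, 0.74 and 0.75 in Magic-F1 cells, against 1.51, 1.61 and 1.66 in control cells. Every Magic-F1 array was lower. The log2 change of Pik3r3 was -0.88 ± 0.06 (adjusted p = 1.57e-05), and its second probe gave -0.87.

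The adaptors moved in opposite directions. Pik3ap1 encodes BCAP, which carries PI3K to B cell and Toll-like receptors, and it read 2.57, 2.73 and 2.53 in Magic-F1 cells, against -2.88, -2.95 and -2.83 in control cells. No array of one group came near the other group. Pik3ap1 changed by 5.50 ± 0.07 (adjusted p = 3.09e-08), or 4.13 with normexp background. A second Pik3ap1 probe changed by 5.71 (3.65 with normexp background) and another, not well above background in control cells, was at least 13.1-fold higher (adjusted p = 6.29e-08, normexp log2 change 1.27). Irs1, the adaptor of the insulin and IGF1 receptors, read 0.70, 0.59 and 0.66 in Magic-F1 cells, against 1.52, 1.51 and 1.51 in control cells. All Magic-F1 values were lower, with a log2 change of -0.86 ± 0.05 (adjusted p = 6.63e-06). Of the other 2 Irs1 probes, neither was well above background on any array, and 1 of them is placed on the strand opposite to the gene. Junction-crossing probes of both genes that rose most in these groups are shown, from mm9 chr11:68307758-68307995 (plus strand) for Pik3r5 and mm9 chr19:41356478-41357609 (minus strand) for Pik3ap1:
Pik3r5 probe: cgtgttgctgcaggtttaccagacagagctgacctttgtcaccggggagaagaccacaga
Pik3ap1 probe: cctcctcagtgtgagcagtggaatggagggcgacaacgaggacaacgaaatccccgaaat

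Of the phosphatases that limit the pathway, all 3 were higher, by very different amounts. Inpp5d encodes SHIP1, the inositol 5-phosphatase of blood cells that removes a phosphate from PIP3. It read 2.20, 2.10 and 2.01 in Magic-F1 cells, against -3.68, -3.73 and -3.36 in control cells. The groups were widely separated, by a log2 change of 5.69 ± 0.11 (adjusted p = 1.03e-07), or 3.94 with normexp background. Its relative Inppl1, which encodes the broadly expressed SHIP2, read 6.02, 6.37 and 6.29 in Magic-F1 cells, against 5.86, 5.84 and 5.87 in control cells. The groups did not overlap, but Magic-F1 replicate 1 lay close to the control arrays. Inppl1 changed by 0.37 ± 0.10 (adjusted p = 0.0112), and within slide 1 alone by 0.29 (adjusted p = 0.0749). Phlpp1, a phosphatase that dephosphorylates AKT, read -2.32, -2.45 and -2.48 in Magic-F1 cells, against -4.63, -5.02 and -4.78 in control cells, where 1 of 3 arrays was well above background. All Magic-F1 values were higher. The log2 change was 2.39 ± 0.11 (adjusted p = 2.59e-06), or 0.54 with normexp background.

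Pik3cd, Pik3cg, Pik3r5, Pik3ap1 and Inpp5d are known mainly from leukocytes. They had the 5 largest rises among the 33 tested genes of the list, from 3.46 for Pik3cd to 5.69 for Inpp5d. In the wider pathway list described below, Fnip2 (5.05) and Lpin1 (4.80) also rose by more than Pik3cd and Pik3cg. With normexp background Pik3cd, at 1.21, lay below Rragc (1.47), Pik3r2 (1.43), Tsc2 (1.39) and Tsc1 (1.25). These 5 genes were grouped with their values known, so their common direction is a description. Among the other 28 tested genes 18 were higher and 10 lower, and the median log2 change was 0.48. Macrophage markers moved with these 5 genes. Their summed signal was 1058 to 1099 times the 75th percentile in Magic-F1 cells and 68.8 to 73.0 times in control cells. Neutrophil markers moved the other way, with sums of 0.202 to 0.222 in Magic-F1 cells and 583 to 627 in control cells. The part of these cell types in the rise was not tested. B cells also use Pik3cd, Pik3ap1 and Inpp5d, and their part in the rise was not tested either. Of the 4 B cell markers 0 passed the test as higher in Magic-F1 cells and 3 as lower. With the spiked-in transcripts Cd79a passed as higher (log2 change 1.02, adjusted p = 0.0198). Cd79b then lost its call as lower (-0.09, adjusted p = 0.263), leaving 2 lower on every one of the 4 scales.

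Promoter sequence was examined because these genes differed together. The letters GAGGAAG, a form of the site recognised by the myeloid and B cell factor PU.1 that contains the ETS core, were searched on both strands of RefSeq windows reaching 250 bases before to 50 after each annotated start (GRCm38.p6). They were present in 13.6% of 32851 windows of all genes and in 10 of 52 windows of the pathway genes (19.2%), which came from 6 of 34 genes, Inpp5d, Irs1, Pik3ap1, Pik3cg, Pik3r3 and Sgk1. The genes with the match included 3 of the 5 leukocyte genes, but also Irs1 and Pik3r3, which were lower in Magic-F1 cells. In Inpp5d the match began at position -20 and in Pik3ap1 at -11 from the start. Some genes, such as Sgk1, gave several of the 10 windows, and no share per gene was computed over all genes. A second motif, the E-box CACGTG, was also searched. It was present in 7.15% of all windows and in 13.5% of those of the pathway genes, from 7 of 34 genes, Pik3ap1 among them. Deptor, Rps6kb2 and Eif4ebp1 were not among the windows. The 250 bases before both starts are shown with the GAGGAAG match alone in capitals, from GRCm38.p6 chr1:87620062-87620311 (plus strand) for Inpp5d and GRCm38.p6 chr19:41385103-41385352 (minus strand) for Pik3ap1:
Inpp5d promoter: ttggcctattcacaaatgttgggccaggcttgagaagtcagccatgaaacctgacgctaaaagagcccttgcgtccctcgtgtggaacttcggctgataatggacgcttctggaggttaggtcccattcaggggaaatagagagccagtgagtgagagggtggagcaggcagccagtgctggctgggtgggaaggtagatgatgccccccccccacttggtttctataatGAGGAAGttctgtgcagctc
Pik3ap1 promoter: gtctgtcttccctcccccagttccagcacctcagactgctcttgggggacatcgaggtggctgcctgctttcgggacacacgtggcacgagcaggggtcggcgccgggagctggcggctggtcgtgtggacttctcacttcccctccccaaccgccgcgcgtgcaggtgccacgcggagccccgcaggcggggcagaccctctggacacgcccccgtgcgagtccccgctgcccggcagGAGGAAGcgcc

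The kinases at the level of AKT differed less than the class I catalytic subunits, by at most 0.78 on the log2 scale (1.24 with the spiked-in transcripts). Pdpk1, the kinase that phosphorylates AKT in its activation loop, rose by 0.78 ± 0.05 (adjusted p = 1.92e-05), and its other 2 probes by 0.62 and 0.55. Sgk1, an AKT-related kinase activated by mTORC2, rose by 0.67 ± 0.04 (adjusted p = 1.18e-05). Akt1 read 6.01, 6.07 and 6.14 in Magic-F1 cells, against 5.79, 5.79 and 5.69 in control cells. The Magic-F1 arrays were all slightly higher, by 0.31 ± 0.06 (adjusted p = 0.00211), and the second Akt1 probe gave 0.29. Akt2, the form linked to insulin-stimulated glucose uptake, read 4.09, 4.05 and 4.12 in Magic-F1 cells, against 4.37, 4.34 and 4.16 in control cells. The Magic-F1 arrays were just below the lowest control array. The log2 change of Akt2 was -0.21 ± 0.07 (adjusted p = 0.0284), but it turned to 0.26 when arrays were scaled to spiked-in transcripts and missed the threshold within slide 1 (-0.17, adjusted p = 0.191). Leaving out any single array other than control replicate 3 also left Akt2 short of the threshold (adjusted p 0.0524 to 0.091). A second Akt2 probe, at mm9 chr7:28421973-28422113 on the plus strand and crossing an exon junction, was lower by more (-0.60 ± 0.12, adjusted p = 0.00326), or -0.13 with the spiked-in transcripts, and is shown because the call for Akt2 differs in size between its probes:
Akt2 probe: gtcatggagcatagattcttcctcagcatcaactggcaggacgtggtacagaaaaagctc

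Gsk3b encodes a kinase that AKT inhibits and that restrains glycogen synthesis and several growth signals. It read -0.58, -0.51 and -0.57 in Magic-F1 cells, against -1.13, -1.09 and -1.18 in control cells. All Magic-F1 arrays were higher, by 0.58 ± 0.05 (adjusted p = 4.76e-05). The single probe of Gsk3a, its close relative, was well above background on 0 of 6 arrays.

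Tsc1 and Tsc2 of the TSC complex, the brake on RHEB, were each higher at their brightest probe. Tsc2, whose product carries the GTPase-activating domain, read 4.88, 4.76 and 4.88 in Magic-F1 cells, against 3.44, 3.40 and 3.47 in control cells. The groups were clearly apart, with a log2 change of 1.40 ± 0.05 (adjusted p = 1.16e-06). Tsc1, which stabilises TSC2, read 0.74, 0.67 and 0.76 in Magic-F1 cells, against -0.63, -0.63 and -0.84 in control cells. These groups were apart too, at 1.42 ± 0.07 (adjusted p = 4.77e-06), but the other 3 Tsc1 probes did not all move with it. At mm9 chr2:28529048-28529107 the change was 1.89, or 0.22 with normexp background, with 1 of 3 control arrays well above background. At chr2:28542631-28542690 it was -0.27 (adjusted p = 0.00393), which became 0.20 when scaled to the spiked-in transcripts, and at chr2:28542202-28542261 it was -0.15 without passing (adjusted p = 0.124), against 0.31 with the spiked-in transcripts. The brightest probe lay at chr2:28545982-28546041, downstream of these on the plus strand.

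The small GTPases that switch on mTORC1 did not move together. Rragc, a Rag GTPase that brings mTORC1 to the lysosome when amino acids are present, read 5.72, 5.79 and 5.84 in Magic-F1 cells, against 4.41, 4.40 and 4.36 in control cells. Its groups were well apart, by 1.39 ± 0.05 (adjusted p = 9.31e-07), and its second probe gave 1.15. Rragd, the alternative partner in the Rag dimer, read 3.00, 2.91 and 3.00 in Magic-F1 cells, against 2.10, 2.16 and 2.36 in control cells. Magic-F1 arrays were again the higher ones, by 0.76 ± 0.08 (adjusted p = 0.000134). The second Rragd probe, much dimmer and well above background on 2 of 3 control arrays, gave 0.68 (adjusted p = 0.0142), or -0.04 without passing with normexp background (adjusted p = 0.541). Rheb, the direct activator of mTORC1, read 6.04, 6.05 and 5.97 in Magic-F1 cells, against 6.57, 6.55 and 6.61 in control cells. Here the Magic-F1 arrays were the lower ones, with a log2 change of -0.55 ± 0.05 (adjusted p = 4.59e-05). With the spiked-in transcripts as the scale this was -0.09 and did not pass (adjusted p = 0.302).

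The subunits of the mTOR complexes were measured only in part. The single probe for the kinase itself, Mtor, was well above background on 0 of 6 arrays, and of the 8 probes for Rictor, the subunit that defines mTORC2, none was above background on more than 1 array. Rptor, the subunit that defines mTORC1 and binds its substrates, read 0.24, 0.09 and 0.12 in Magic-F1 cells, against -0.63, -0.58 and -0.58 in control cells. Its groups were apart, Magic-F1 being higher by 0.74 ± 0.06 (adjusted p = 2.71e-05), and a second Rptor probe gave 0.65. Mlst8, a subunit shared by both complexes, read 2.99, 3.10 and 3.09 in Magic-F1 cells, against 3.40, 3.47 and 3.34 in control cells. The Magic-F1 values were lower, with a log2 change of -0.34 ± 0.06 (adjusted p = 0.0016), but this turned to 0.12 when scaled to the spiked-in transcripts.

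Of the inhibitors of mTOR signalling, Ddit4 differed most by the brightest probe. Ddit4 encodes REDD1, a stress-induced protein that acts through the TSC complex to lower mTORC1 activity. It read 4.72, 5.85 and 5.26 in Magic-F1 cells, against 7.16, 7.16 and 7.28 in control cells. Every Magic-F1 array was lower, and the Magic-F1 arrays spread over more than 1 log2 unit while the control arrays were close together (means 5.28 ± 0.56 and 7.20 ± 0.07, SD, n = 3 each). The log2 change was -1.92 ± 0.27 (adjusted p = 0.000663), with -2.23 within slide 1 and -1.31 within slide 2. Akt1s1, which encodes the mTORC1 inhibitor PRAS40, read 3.13, 3.31 and 3.23 in Magic-F1 cells, against 3.60, 3.69 and 3.33 in control cells. The groups were separated by a narrow gap. Its log2 change of -0.32 ± 0.11 (adjusted p = 0.0287) turned to 0.14 with the spiked-in transcripts and missed the threshold when Magic-F1 replicate 1 or 3 or control replicate 1 or 2 was left out (adjusted p 0.0683 to 0.0887).

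Deptor, an inhibitor that binds mTOR in both complexes, had 2 probes that moved in opposite directions. Its brighter probe, at mm9 chr15:55083753-55083812, read -0.25, -0.34 and -0.25 in Magic-F1 cells, against -0.61, -0.62 and -0.60 in control cells. These values were all slightly higher in Magic-F1 cells, by 0.33 ± 0.05 (adjusted p = 0.000618). The other probe, further along the plus strand at chr15:55086987-55087046, read -7.59, -7.18 and -7.30 in Magic-F1 cells, where 0 of 3 arrays were well above background, against -2.26, -2.36 and -2.20 in control cells. It was at least 8.18-fold lower in Magic-F1 cells (adjusted p = 1.60e-07), with a log2 change of -1.27 under normexp background. No direction is therefore given for Deptor as a gene, though the counts above place it by its brighter probe.

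At the output end of the pathway 2 genes were higher and 3 lower. Eif4ebp1 encodes 4E-BP1, the repressor that holds eIF4E until mTORC1 phosphorylates it. It read 5.66, 5.59 and 5.71 in Magic-F1 cells, against 7.25, 7.25 and 7.38 in control cells. All Magic-F1 values were lower, with a log2 change of -1.64 ± 0.06 (adjusted p = 1.05e-06). Eif4ebp2, its relative with the same function, read 1.16, 1.45 and 1.24 in Magic-F1 cells, against 0.12, 0.06 and 0.07 in control cells. It went the other way, with all Magic-F1 arrays higher by 1.21 ± 0.08 (adjusted p = 1.80e-05). Eif4e itself read 1.75, 1.84 and 1.73 in Magic-F1 cells, against 3.21, 3.14 and 3.18 in control cells. All Magic-F1 values were lower, at -1.41 ± 0.05 (adjusted p = 9.50e-07), and the second Eif4e probe gave -1.40.

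The S6 kinases, which phosphorylate ribosomal protein S6 and other translation factors, differed from each other. Rps6kb2 encodes S6K2. It read -0.56, -0.48 and -0.55 in Magic-F1 cells, against 0.56, 0.58 and 0.40 in control cells. The groups were fully separated, with a log2 change of -1.04 ± 0.06 (adjusted p = 9.39e-06). Rps6kb1 encodes S6K1 and read 0.15, 0.06 and 0.05 in Magic-F1 cells, against -0.15, -0.16 and -0.22 in control cells. Magic-F1 arrays were a little higher, by 0.26 ± 0.05 (adjusted p = 0.0024). Its second tested probe gave -0.25 without passing (adjusted p = 0.0588), or 0.21 when scaled to the spiked-in transcripts, and the other 4 Rps6kb1 probes were not tested. Both tested Rps6kb2 probes cross exon junctions on the minus strand and gave like changes, -1.04 at mm9 chr19:4157548-4157694 and -1.29 at mm9 chr19:4158669-4158839, so the fall was read at 2 separate stretches of the spliced RNA, shown here:
Rps6kb2 probe 1: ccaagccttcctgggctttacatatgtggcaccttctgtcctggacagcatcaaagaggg
Rps6kb2 probe 2: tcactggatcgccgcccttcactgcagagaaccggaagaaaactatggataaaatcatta

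Probes of the same gene mostly moved the same way. Of 16 genes with 2 or more tested probes, 13 had all their probes pass in 1 direction, though for Rragd this did not hold with normexp background. Over the whole array 87.7% of tested probes passed. The same share over all genes with several tested probes was not computed, so the count does not set these genes apart. Tsc1 and Deptor had probes that passed in both directions, and Rps6kb1 had 1 probe that did not pass.

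**Figure D2:**
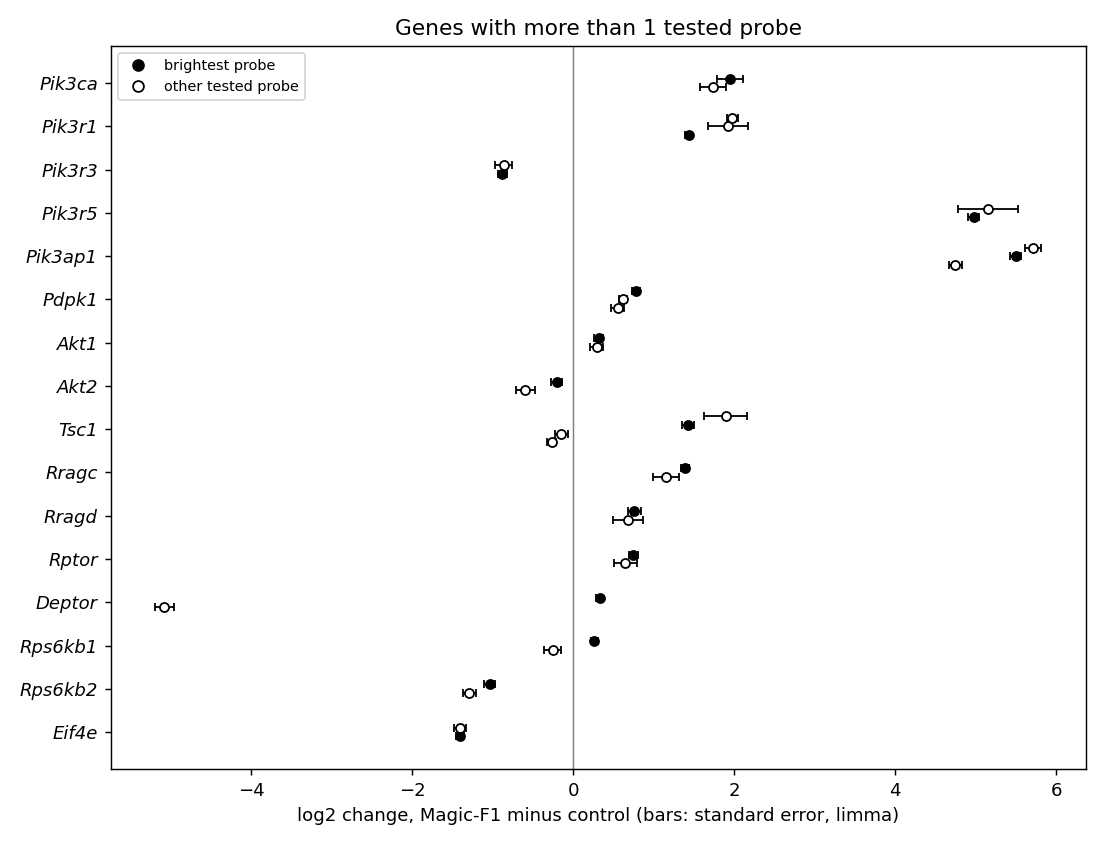
Each row is a gene with more than 1 tested probe, and the x axis gives the log2 change of each probe, Magic-F1 minus control, with its standard error as a bar. Filled circles are the brightest probe of the gene and open circles its other tested probes. Open circles of Tsc1, Deptor and Rps6kb1 lie across 0 from the filled one, with the Deptor pair at 0.33 and -5.08.

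Related genes were also compared within each array, where the scaling of the array cancels. Of 13 pairs 10 had a tested probe on both sides, and for 9 of them the within-array differences of Magic-F1 and control arrays did not overlap, against 90.4% of all pairs of tested genes, so that the count does not set these pairs apart. Each of those 9 had an exact permutation p of 0.1 (2-sided, 3 against 3 arrays), the smallest this design can give, or 0.111 adjusted over the 10 pairs, so none could pass 0.05. Inpp5d rose relative to Inppl1 by 5.32 ± 0.19 (SE, 3.53 with normexp background) and Pik3r5 relative to Pik3r1 by 3.54 ± 0.07. Pik3cg changed relative to Pik3cb by 1.61 ± 0.08. Pik3cd changed relative to Pik3ca by 1.51 ± 0.44, a difference that shrank to 0.04 with normexp background. Pik3r3 changed relative to Pik3r2 by -2.31 ± 0.06 and Eif4ebp1 relative to Eif4ebp2 by -2.84 ± 0.13. The S6 kinase pair, Rps6kb2 against Rps6kb1, differed by -1.30 ± 0.06. Smaller differences were found for Rragd against Rragc (-0.63 ± 0.10) and for Akt1 against Akt2 (0.52 ± 0.05). Tsc1 against Tsc2 was the pair that overlapped, at 0.02 ± 0.09 (exact permutation p = 1), with single-array values of -4.13, -4.10 and -4.12 in Magic-F1 cells and -4.07, -4.03 and -4.32 in control cells. In that pair the Tsc1 value is that of its brightest probe, which its other probes did not all follow.

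**Figure D3:**
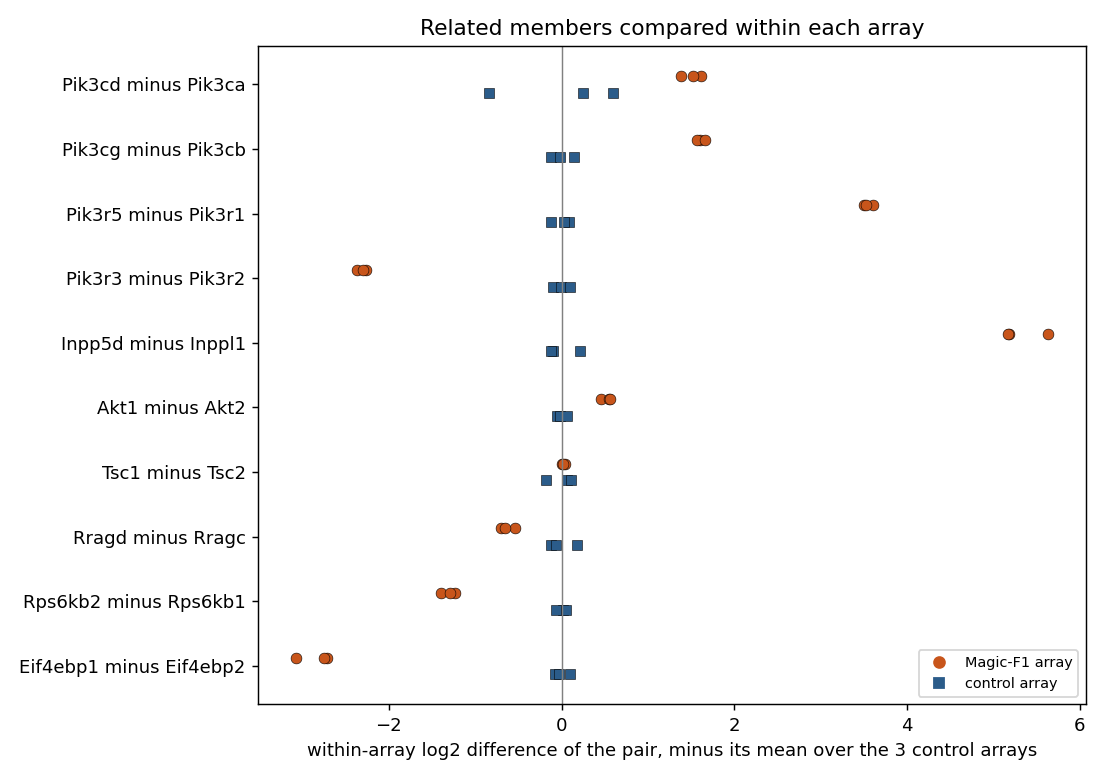
Each row is a pair of related genes, and the x axis gives the difference of their log2 signals within an array, minus the mean of that difference over the control arrays. Orange circles are Magic-F1 arrays and blue squares control arrays. The Magic-F1 circles of Inpp5d minus Inppl1 lie about 5.32 to the right and those of Eif4ebp1 minus Eif4ebp2 at -2.84, while those of Tsc1 minus Tsc2 lie among the control squares.

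The direction of the smaller changes rested on how the arrays were scaled. When arrays were scaled to 8 spiked-in transcript probes instead of the 75th percentile, the median of all genes moved to 0.30, from -0.17, and the median of the pathway genes to 1.21, from 0.74. This scaling moves every gene by the same amount. On that scale 24 pathway genes were higher and 6 lower, and 59.1% of the genes called on the whole array were higher instead of 45.4%. Akt2, Akt1s1 and Mlst8 changed sign and Rheb lost its call, whereas Ddit4, Eif4ebp1, Eif4e, Rps6kb2, Pik3r3 and Irs1 were lower on every scale. Background correction mattered for the dim genes. With normexp the fold was over 1.5 times smaller for 8 genes, Inpp5d, Pik3ap1, Pik3r5, Pik3cg, Pik3cd, Pik3cb, Pik3ca and Phlpp1, and all 8 were still higher in Magic-F1 cells.

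**Figure D4:**
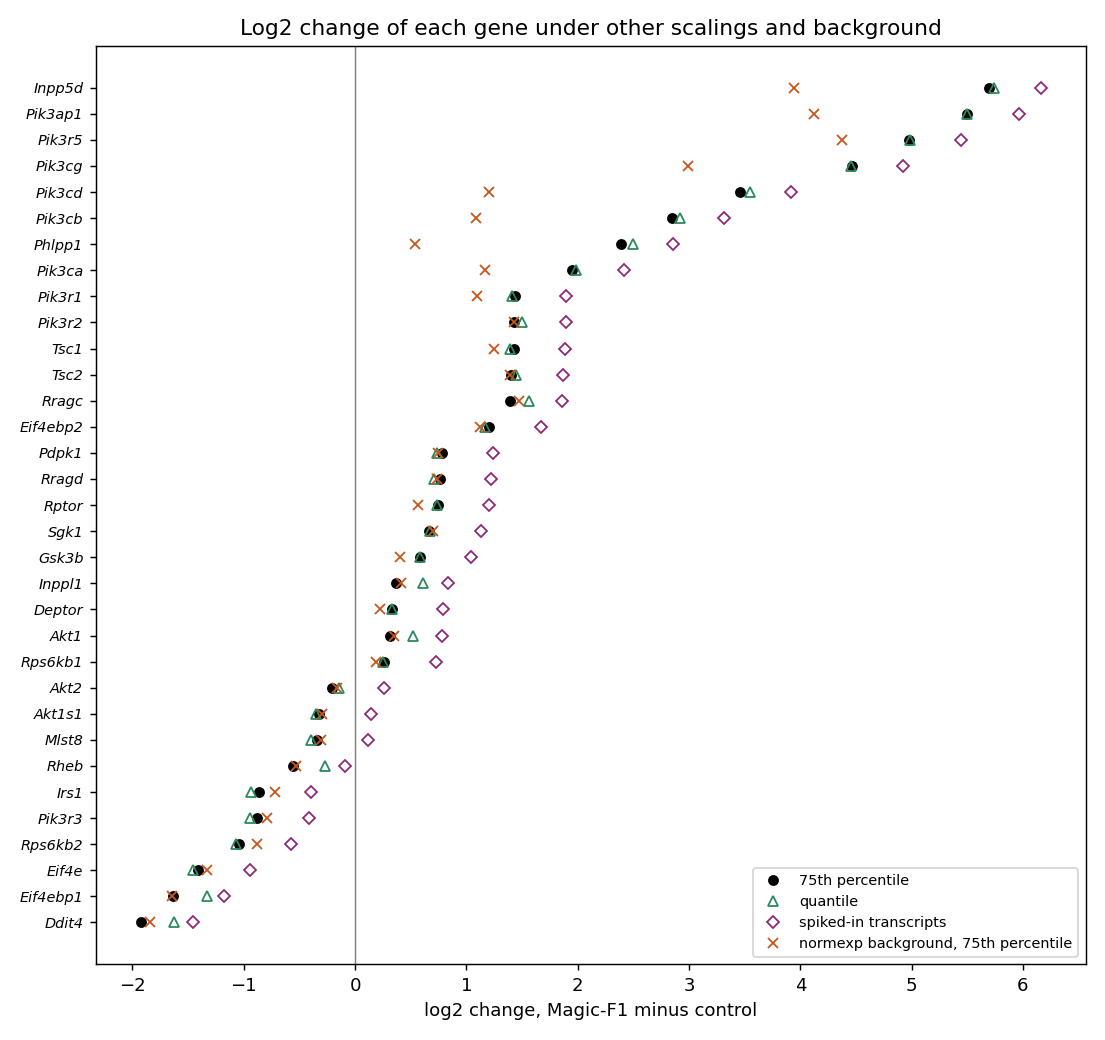
Each row is a pathway gene, ordered by its log2 change (x axis, Magic-F1 minus control). Black circles use the 75th percentile, green triangles quantile normalization, purple diamonds the spiked-in transcripts and orange crosses normexp background with the 75th percentile. The diamonds lie to the right of the circles in every row and cross 0 for Akt2, Akt1s1 and Mlst8, and the crosses lie well to the left for the PI3K genes and Phlpp1 at the top.

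A wider list of 62 pathway genes beyond the 37 gave a similar split. Of 56 with a tested probe, 37 were higher (66.1%), 14 lower (25%) and 5 did not pass. Over all tested genes these shares were 40.5% higher and 48.6% lower. In all 91.1% of the wider list passed, against 89.1% of all genes, so passing does not set it apart. Their median log2 change was 0.66 (1.13 with the spiked-in transcripts). Among PI3K, AKT and PIP3 genes 12 were higher and 3 lower of 17, among mTOR complex and upstream genes 19 and 9 of 29, and among output genes 6 and 2 of 10. Lpin1, which encodes a phosphatidate phosphatase whose nuclear entry mTORC1 blocks, rose by 4.80 ± 0.06 (adjusted p = 2.80e-08), or 4.19 with normexp background. Pik3r6, which encodes p84, the alternative partner of p110 gamma, read 2.78, 2.82 and 2.90 in Magic-F1 cells, against -0.27, -0.63 and -0.34 in control cells. All Magic-F1 arrays were higher, and the log2 change was 3.25 ± 0.10 (adjusted p = 5.82e-07). Sesn1, a leucine-sensing inhibitor of mTORC1 signalling, rose by 2.93 ± 0.06 (adjusted p = 8.57e-08), and Inpp5k, another inositol 5-phosphatase, by 2.31 ± 0.05. Fnip2, a partner of folliculin at the lysosome, and Gab2, a docking protein for PI3K, were not well above background in control cells and were at least 7.32-fold and at least 2.74-fold higher in Magic-F1 cells (adjusted p = 3.77e-08 and 0.000109). Their log2 changes with normexp background were 0.97 and 0.25.

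Ddit4l, Prr5, Grb10, Trib3 and Prkaa2 were among the 6 largest falls of the wider list. Ddit4l, the relative of Ddit4 that encodes REDD2, changed by -3.22 ± 0.06 (adjusted p = 9.81e-08). Prr5, a subunit of mTORC2, changed by -2.90 ± 0.09 (-2.11 with normexp background), and Grb10, an adaptor that inhibits insulin receptor signalling, by -2.59 ± 0.06. Trib3, a stress-induced pseudokinase that binds AKT, changed by -2.05 ± 0.05, and Prkaa2, the AMPK catalytic subunit prominent in skeletal muscle, by -1.73 ± 0.18 (-0.71 with normexp background). Several marker sums were lower alongside these genes. Myogenic markers summed to 100 to 103 on Magic-F1 arrays and 1059 to 1114 on control arrays. Neutrophil markers summed to 0.202 to 0.222 and 583 to 627, and endothelial markers to 0.228 to 0.255 and 7.51 to 7.89. B cell, T cell and fibroblast sums were lower too, while macrophage and adipocyte sums were higher. The part of any of these cell types in the falls was not tested.

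**Figure D5:**
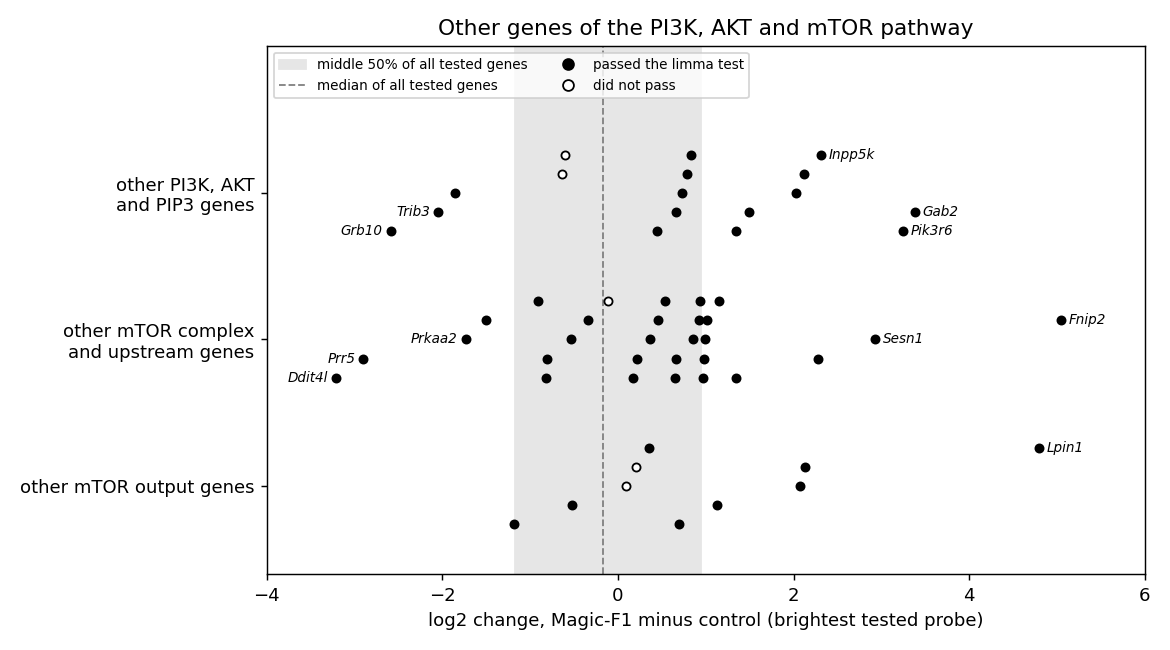
Each point is a pathway gene outside the list of 37, in 3 rows by role, at its log2 change (x axis, Magic-F1 minus control). Filled points passed the limma test and open points did not, the grey band holds the middle of all tested genes and the dashed line is their median of -0.17. Fnip2 and Lpin1 lie furthest right, at 5.05 and 4.80, and Ddit4l furthest left at -3.22.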

How the data were processed

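Cy3-labelled RNA of each of the 6 samples was run on 1 array of Agilent design 014868, per the labels and the file headers. Spots were read with Agilent Feature Extraction 10.5.1.1, per the file headers, which give an intensity per spot after background subtraction, with flags and without scaling between arrays. The authors also deposited a table of log2 values. It equals the log2 of the processed signal on 4 arrays and differs on both arrays numbered 1 (SD of the difference 0.456 and 0.472) for reasons not given in the sources used here.

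Groups came from the sample labels. Control spots and 59 to 89 outlier-flagged spots per array were left out, log2 processed signals were reduced by the 75th percentile of the array, and spots of a probe were averaged. Of 41174 probes, 25097 were named through their accession in a RefSeq gene table, 7973 through a symbol or synonym, and 8104 stand under the file's own name. Coordinates were taken from the files (mm9), without an annotation of exons. A probe entered the test when every array of 1 group or both was well above background, and the brightest tested probe stands for a gene. Groups were compared with limma 3.58.1 in R 4.3.3 without covariates, 2-sided, and p-values were adjusted by Benjamini-Hochberg over 21190 probes, with a threshold of 0.05. The median residual SD was 0.0928. A group with no array well above background gives a bound ("at least N-fold"): the mean of the bright group over a floor, which on each dim array is its lowest signal well above background, or the probe's own signal if higher. Log2 changes with normexp background (offset 50) are given beside the change or bound of a named gene where the fold was over 1.5 times smaller with it. Arrays have no read depth, so the number of arrays limits the precision. Tried on simulated arrays of 21186 probes, the test recovered 58%, 72% and 88% of changes of log2 0.5, 1 and 2. It recovered 80% of changes of log2 -1 and made 6 false calls among 20986 unchanged probes. Nearly all simulated probes were thus unchanged, whereas 87.7% of tested probes passed on the real arrays, so these figures need not hold for them.

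Replicate numbers were not used as pairs. Alternatives covered scaling, background, dim probes, the authors' table, slide, replicate block and left-out arrays.

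The members and lists were chosen with earlier results of these data known. Every pathway gene of the list of 37 is named. Of the wider list, the 6 largest rises and 6 largest falls that passed were to be named, and of each marker list up to 3 tested genes of largest change. Of these genes 2 are not reported here, and the counts and sums include them.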

Additional observations from a re-analysis of the deposited data

How the results depend on the processing

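Over 19 alternatives, 26 of the 33 tested pathway genes kept their direction and their side of the threshold in every one that gave a value. Scaling to the spiked-in transcripts left 6 pathway genes lower (10 with the 75th percentile) and 10 probes lower (16), and turned Akt2 to 0.26 (adjusted p = 0.0103), Mlst8 to 0.12 and Akt1s1 to 0.14. Averaging all tested probes of a gene turned Deptor to -2.38 and took Rps6kb1 to 0.0046. Akt2 also missed the threshold under 10 settings, with adjusted p up to 0.42. Replicate numbers are in the titles, but same-numbered arrays deviated together little or not at all (correlations -0.00292, 0.108 and 0.0689). Even so 4 of 6 arrays correlated best with their own number, so the check leaves the pairing unsettled. With the replicate block 23 pathway genes were higher and 9 lower, since Akt2 lost its call (adjusted p = 0.059); it gave 36 and 15 probes, 37 and 15 genes of the wider list, and 5366 and 6479 of all genes. Leaving out 1 array gave 23 pathway genes higher each time and 8 to 10 lower, 36 probes higher and 14 to 17 lower, 36 to 37 and 14 to 15 genes of the wider list, and 9 to 10 pairs whose groups did not overlap. Over all genes these counts ran from 5226 to 5458 higher and from 6302 to 6469 lower, and over all probes from 8450 to 8828 and from 9552 to 9854. The leave-one-out losses touched Akt2 and Akt1s1 alone among the pathway genes. Replicates 1 and 3 of both groups shared slide 1 and replicate 2 of both slide 2; with slide as a block 23 genes were higher and 10 lower, and within slide 1 22 and 8. Mtor, Rictor and Gsk3a, not well above background, are beyond what these arrays measured, and folds of genes near background in 1 group depend on the background correction.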
